A study of Mus musculus with 8 samples.

Results

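Complement and coagulation are protease cascades of the blood whose genes are also expressed inside tumors, and 38 of them were examined in CT26 tumors: 21 genes of complement, 13 of coagulation and its control, and 4 of fibrinolysis. A gene was a member when its symbol stood on the member list and was given as the gene name of a non-control probe, which gave 63 probes. Of the 38 genes, 35 had a probe that could be tested, out of 21497 tested gene names on the array. A probe could be tested when, in 1 or more of the treatment groups, its signal was well above background on each array. The 3 untested genes were A2m, a broad protease inhibitor of plasma, and F2rl1, a protease-activated receptor, which were not well above background on any of the 8 arrays, and Cfi, which cleaves C3b and C4b, which was so on 1 array.

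CT26 is a colon carcinoma line of BALB/c mice. The tumors were grown under the skin of the flank from 500000 implanted cells, and treatment began at a volume of 100 to 200 mm3 and lasted 2 weeks. The study's mice were female and 6 to 10 weeks old per its methods. Mice of the vehicle group received carboxymethylcellulose in saline, the TP-16 group 75 mg/kg of TP-16 (BY001) orally each day, the anti-PD-1 group 50 µg of anti-PD-1 antibody per mouse intraperitoneally 2 times a week, and the combination group both agents. TP-16 is an antagonist of the prostaglandin E2 receptor EP4, and PD-1 is a checkpoint receptor that restrains T cells. Each group had 2 tumor samples, each on 1 one-colour Agilent array. Whether a sample was 1 tumor or a pool of tumors was not stated in the sources used here, so that p-values measure only the spread between these samples.

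Complement is started by C1q bound to its targets (classical pathway), by lectins, or by the spontaneous turnover of C3 (alternative pathway), and all routes meet at the cleavage of C3. The fragments of C3 and C5 recruit and activate myeloid cells through C3ar1 and C5ar1, and the terminal components build a membrane pore. Inhibitors act at several steps: Cd55 dissociates C3 convertases, and Cd59a blocks the pore. Coagulation runs from tissue factor (F3) with factor VII through factor X to thrombin and fibrin, which plasmin, generated by Plau and Plat, dissolves again. Macrophages, fibroblasts and tumor cells make many of these proteins locally, and several complement genes are known targets of interferon gamma and of NF-kappa-B.

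The 8 arrays shared 1 slide, whose rows divided the groups by antibody and whose columns divided them by TP-16, so that position on the slide and treatment cannot be told apart. The 75th percentile of intensity ranged from 371.1 to 733.7 between arrays, 51.4% to 59.7% of probes were well above background, and 0 were saturated. The number of arrays limits the precision. The vehicle arrays differed most from each other (SD of the probe-wise difference 0.68 on the log2 scale, against 0.42 to 0.53 in the other groups). Of the markers of carcinoma and intestinal epithelium, Krt18 and Cdh1 were well above background on all 8 arrays, Epcam on 1 and Vil1 on 0. The summed linear level of 8 keratinocyte markers was 31.7 on the second TP-16 array and 31.4 on the second anti-PD-1 array, against 1.98 to 5.23 on the other 6. That of 8 skeletal muscle markers was 19.3 on the first vehicle array, against 31.8 to 79.1 on the other 7. In bulk tumor RNA, fewer cells of a type and less RNA per cell cannot be told apart.

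Throughout, a level is the log2 intensity of a probe relative to the 75th percentile of its array, given for the brightest tested probe of the gene, and a difference of 1 is a 2-fold change. A gene was called when its fold change reached 2 and its p in a limma fit, adjusted over all 31912 tested probes by the Benjamini-Hochberg procedure, did not exceed 0.05. The threshold of the methods, with the same fold and p values before adjustment, was applied to this fit too and is named the unadjusted threshold.

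The upstream sequences of 3 members are shown with letter matches to known motifs close to their starts: C3, with the largest rise among the members, Pros1, an anticoagulant that rose, and Cd55, a complement inhibitor that was not called in any comparison and had its lowest levels under TP-16. The RefSeq promoter sequences used here (GRCm38.p6) covered 25 of the 38 members. The 250 bases before the start are printed on the strand of the gene, and capitals mark matches, on either strand, to the kappa-B core (GGGNNNNNCC), the gamma-activated site (TTCNNNGAA), the core of the interferon-stimulated element (GAAANNGAA) or the core of the cyclic AMP response element (TGACG, which also lies inside the whole element, TGACGTCA).
C3, chr17:57228137-57228386, minus strand: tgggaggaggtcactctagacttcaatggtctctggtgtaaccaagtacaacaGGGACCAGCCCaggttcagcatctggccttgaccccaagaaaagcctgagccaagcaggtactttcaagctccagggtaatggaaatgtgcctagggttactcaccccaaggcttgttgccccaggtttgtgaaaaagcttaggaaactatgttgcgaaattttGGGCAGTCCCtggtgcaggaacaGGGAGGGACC
Pros1, chr16:62854057-62854306, plus strand: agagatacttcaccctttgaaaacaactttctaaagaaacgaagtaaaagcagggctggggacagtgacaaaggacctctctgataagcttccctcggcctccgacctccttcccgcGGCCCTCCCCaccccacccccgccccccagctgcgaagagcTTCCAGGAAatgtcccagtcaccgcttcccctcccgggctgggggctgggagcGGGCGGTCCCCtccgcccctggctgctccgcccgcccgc
Cd55, chr1:130462745-130462994, minus strand: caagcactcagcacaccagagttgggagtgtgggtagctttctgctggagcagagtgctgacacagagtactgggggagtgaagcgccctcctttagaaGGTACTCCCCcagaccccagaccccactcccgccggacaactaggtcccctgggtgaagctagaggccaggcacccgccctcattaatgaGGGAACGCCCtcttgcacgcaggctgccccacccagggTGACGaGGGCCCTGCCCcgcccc
The C3 sequence held 4 kappa-B core matches, of which the first 2 overlap at -197 and -196 from the start and the last 2 begin at -33 and -10. A gamma-activated site began at -92 of Pros1, and a cyclic AMP response core at -23 of Cd55. Over all 32851 promoter sequences of the table, 45.8% held a kappa-B core, 7.02% a gamma-activated site, 7.13% the interferon-stimulated core, 17.8% the core and 1.55% the whole cyclic AMP response element. The corresponding numbers of the 25 members were 17, 2, 2, 4 and 0. A match is a description of letters and not a site of binding.

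With the combination, complement genes of the classical and alternative routes, the C3a receptor and C1 inhibitor rose together, from about 2-fold to 7.88-fold, along with coagulation factor X and protein S. Of the 35 tested members, 10 were called higher, against 5.59% of all tested gene names, and 0 lower, against 8.62%. The 10 comprised 8 of 20 tested complement genes and 2 of 11 tested coagulation genes, with 0 of 4 fibrinolysis genes. The median log2 difference was 0.65 over the members and -0.24 over all tested gene names. Both combination arrays lay above the other 6 arrays for 16 of 35 members, against 13.6% of gene names. At the unadjusted threshold 12 members were higher, against 6.65%, and 0 lower, against 10.4%. The members were chosen with earlier results of these data known. Here and below, their counts beside the shares of all gene names are thus a description and not independent evidence.

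**Figure D1:**
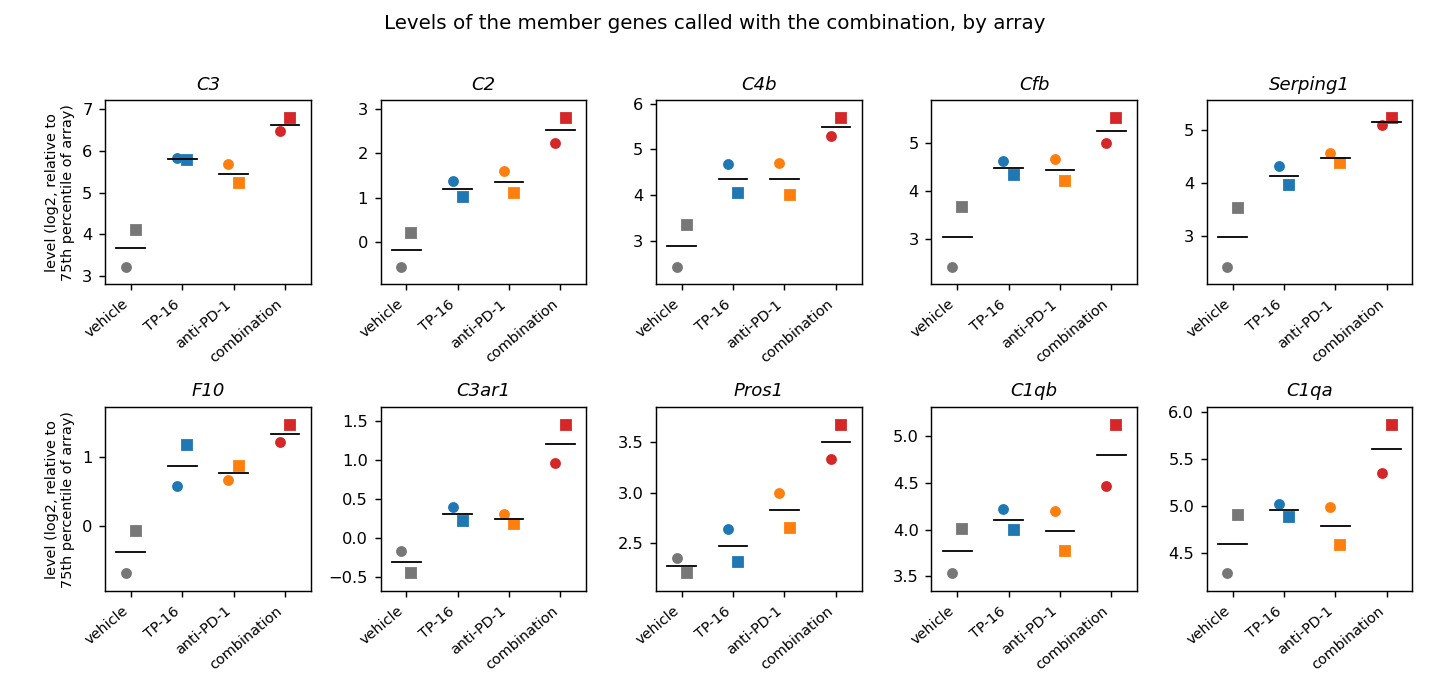
Levels (log2, relative to the 75th percentile of the array) of the 10 member genes called with the combination, for the 4 groups; circles are replicate 1, squares replicate 2 and bars the mean of both arrays. For all 10 genes, both combination arrays lie above the other 6 arrays, from C3 with a difference of 2.98 from vehicle to C1qa with 1.01.

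C3 (probe at chr17:57343416-57343475, mm9) is the component at which all routes of complement meet. Its level was 3.22 and 4.09 in the vehicle arrays, 5.84 and 5.79 with TP-16, 5.68 and 5.22 with anti-PD-1, and 6.47 and 6.79 with the combination. The vehicle arrays were the lowest, the combination arrays the highest, and no group overlapped with either of them. C3 rose 7.88-fold with the combination (log2 difference 2.98 ± 0.32, SE; 95% interval 2.19 to 3.76; limma adjusted p = 0.0102). A dimmer probe of C3 gave 2.99 (limma adjusted p = 0.0102).

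Cfb encodes factor B, which binds C3b to form the alternative C3 convertase. Cfb levels were 2.42 and 3.65 with vehicle, 4.61 and 4.33 with TP-16, 4.67 and 4.20 with anti-PD-1, and 4.99 and 5.51 with the combination. The groups treated with 1 agent overlapped each other and stood between vehicle and the combination. The combination difference was 2.22 ± 0.43 (SE), or 4.65-fold (limma adjusted p = 0.017), and 2.54 at the second probe.

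Among the other alternative-pathway members, Cfp (properdin, which stabilizes that convertase) differed by 0.68 (limma adjusted p = 0.111) and Cfd (factor D, the protease that cleaves factor B) by 0.64 (adjusted p = 0.384) with the combination. Cfd stood at -0.52 and 1.07 with vehicle, 1.06 and 0.93 with TP-16, 2.19 and 1.49 with anti-PD-1, and 0.71 and 1.13 with the combination. Its highest arrays were thus those of anti-PD-1 alone. Factor D is abundant in adipose tissue. Of 8 tested adipocyte markers 0 were called with anti-PD-1, with a median difference of 0.61. Cidec gave 1.27, Adipoq 1.13 and Retn 1.13 (limma adjusted p = 0.356, 0.396 and 0.276), and for all 3 the first vehicle array was the lowest and the anti-PD-1 arrays were the highest. Fabp4, the brightest of the list, gave -0.45, and the summed linear level, which it dominates, was 33.7 and 35.7 with vehicle and 30.9 and 26.2 with anti-PD-1. The part of these markers in the Cfd values was not tested.

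Of 6 tested members for recognition and early proteases, C2, C4b, C1qa and C1qb rose with the combination. C2 provides the protease of the classical C3 convertase. Its level was -0.54 and 0.22 with vehicle, 1.38 and 1.01 with TP-16, 1.61 and 1.11 with anti-PD-1, and 2.24 and 2.79 with the combination. As for C3, all vehicle arrays lay below and all combination arrays above the rest. The rise was 6.39-fold (2.68 ± 0.34, SE; limma adjusted p = 0.0102).

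C4b encodes the C4 component that anchors that convertase. Its level was 2.43 and 3.33 with vehicle, 4.67 and 4.04 with TP-16, 4.70 and 3.99 with anti-PD-1, and 5.30 and 5.68 with the combination, in the same order of groups. C4b rose 6.11-fold (2.61 ± 0.41, SE; limma adjusted p = 0.0113). The near-identical gene C4a gave 2.67 (adjusted p = 0.0238), and signal of the pair cannot be told apart with certainty.

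C1qa, C1qb and C1qc encode the chains of C1q, a product chiefly of macrophages, and lie side by side on chromosome 4. C1qa stood at 4.28 and 4.90 with vehicle, 5.02 and 4.88 with TP-16, 4.99 and 4.58 with anti-PD-1, and 5.35 and 5.86 with the combination. For C1qb the levels were 3.53 and 4.01, 4.22 and 3.99, 4.20 and 3.77, and 4.47 and 5.12 in that order of groups. Vehicle and single-agent arrays overlapped for both genes. The combination differences were 1.01 ± 0.28 for C1qa (limma adjusted p = 0.0426) and 1.03 ± 0.29 for C1qb (adjusted p = 0.0444), just past a 2-fold change, and each call was lost in 11 of the 19 alternatives run. C1qc differed by 0.72 (adjusted p = 0.0878) and passed after quantile normalization (1.17, adjusted p = 0.0385; range over the alternatives 0.38 to 1.18). Masp1, a protease of the lectin pathway, differed by -0.37 (adjusted p = 0.245).

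C3ar1, the receptor for C3a on myeloid cells, stood at -0.17 and -0.46 with vehicle, 0.40 and 0.22 with TP-16, 0.30 and 0.18 with anti-PD-1, and 0.96 and 1.45 with the combination. It rose 2.88-fold (1.52 ± 0.20, SE; limma adjusted p = 0.0102). C5ar1, the receptor for C5a, differed by 0.23 (adjusted p = 0.416), with levels between 0.92 and 1.5 in all groups. Only the second combination array exceeded the other 7 for C5ar1.

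Serping1 encodes C1 inhibitor, which blocks C1r, C1s, kallikrein and factor XII. Its level was 2.43 and 3.53 with vehicle, 4.32 and 3.96 with TP-16, 4.57 and 4.39 with anti-PD-1, and 5.10 and 5.23 with the combination. Serping1 rose 4.54-fold (2.18 ± 0.36, SE; limma adjusted p = 0.012). The other inhibitors tested did not pass: Cd59a, which blocks the membrane pore, differed by 0.52 (adjusted p = 0.0819), Vtn (vitronectin) by 0.49, Cd55, which dissociates C3 convertases, by 0.48, and Clu (clusterin) by -0.53, with adjusted p from 0.0819 to 0.493. Cd55 and Cd59a each have a near-identical copy, Cd55b and Cd59b. Signal may be shared with it.

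Terminal components gave no call. C6 stood at -5.27 and -2.92 with vehicle, -2.45 and -2.89 with TP-16, -2.15 and -2.82 with anti-PD-1, and -2.02 and -1.62 with the combination, where the first vehicle array was not well above background. The difference was 2.28 ± 0.74 (limma adjusted p = 0.0628), and 1.1 without that array (adjusted p = 0.082; range over the alternatives 0.0162 to 0.344). C6 passed both thresholds in 4 of 18 alternatives. Among them were quantile normalization (2.66, limma adjusted p = 0.0369) and the authors' log2 values, also at 2.66. Another was the fit without the second vehicle array (3.45). The vehicle array left in that fit was not well above background, so that 3.45 is not a measured fold. For C7, which inserts next to C6 in the pore complex, the levels were -1.30 and -1.86 with vehicle, -1.98 and -2.86 with TP-16, -1.97 and -1.41 with anti-PD-1, and -2 and -3.18 with the combination. C7 differed by -1.01 (adjusted p = 0.167), the lowest of the members, and its combination and TP-16 arrays overlapped.

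Of the coagulation factors, F10 rose. Factor X is the protease at which the tissue factor and contact routes join, and its gene neighbours F7 on chromosome 8. F10 stood at -0.68 and -0.07 with vehicle, 0.58 and 1.18 with TP-16, 0.68 and 0.88 with anti-PD-1, and 1.22 and 1.47 with the combination. Both vehicle arrays were lowest and both combination arrays highest, and F10 rose 3.28-fold (1.72 ± 0.28, SE; limma adjusted p = 0.0121). F7, at -5.16 and -3.67 with vehicle, -5.43 and -3.88 with TP-16, -3.60 and -3.85 with anti-PD-1, and -2.86 and -2.47 with the combination, was well above background on 6 of 8 arrays and differed by 1.75 ± 0.65 (adjusted p = 0.0873). After quantile normalization F7 passed, at 2.41 (adjusted p = 0.0325; range of its difference over the alternatives 0.28 to 2.5).

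F3 (tissue factor, the initiator of coagulation) was higher by 0.65 with a limma adjusted p of 0.0381, under a 2-fold change, and F5 (factor V, the cofactor of factor X) by 0.84 (adjusted p = 0.056). F13a1, the fibrin crosslinking subunit A of factor XIII, differed by -0.27 (adjusted p = 0.725), F8 (the cofactor of factor IX) by 0.09 and F2r (the thrombin receptor PAR1) by -0.15. F8 was well above background on 4 arrays and was tested only through 1 group. Its levels were -5.29 and -3.77 with vehicle, -4.86 and -4.49 with TP-16, -5.53 and -5.07 with anti-PD-1, and -4.02 and -4.86 with the combination. Both combination arrays, 1 vehicle array and 1 TP-16 array were well above background, and no anti-PD-1 array was, so that these levels set no order of the groups.

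The anticoagulants differed in direction. Pros1 encodes protein S, a cofactor of protein C and a ligand of TAM receptors, and stood at 2.35 and 2.20 with vehicle, 2.64 and 2.31 with TP-16, 3 and 2.65 with anti-PD-1, and 3.33 and 3.67 with the combination. It rose 2.33-fold (1.22 ± 0.20, SE; limma adjusted p = 0.0119), and its second tested probe gave 1.22. Thbd (thrombomodulin) differed by 0.65 (adjusted p = 0.0712). Procr, the endothelial protein C receptor, was lower by -0.35 (adjusted p = 0.0444), less than 2-fold. Tfpi, the inhibitor of tissue factor, stood at 2.34 and 1.91 with vehicle, 1.56 and 1.58 with TP-16, 1.88 and 1.64 with anti-PD-1, and 1.66 and 1.69 with the combination. Both vehicle arrays were the highest. Tfpi differed by -0.45 (adjusted p = 0.0909) at its brightest probe, and its 3 dimmer probes gave -0.69, -0.88 and -1.22 with adjusted p of 0.0275, 0.0112 and 0.0169. The dimmest of them alone passed a 2-fold change in the fit. It was well above background on 1 of 2 vehicle arrays and on no combination array, and it was at least 1.86-fold lower.

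In fibrinolysis, Plaur, the urokinase receptor, stood at 5.41 and 5.35 with vehicle, 5.14 and 5.10 with TP-16, 5.06 and 5.35 with anti-PD-1, and 4.81 and 4.73 with the combination. Its combination arrays were the lowest, with a difference of -0.61 ± 0.13 (limma adjusted p = 0.021) that did not reach 2-fold. Plau (urokinase) differed by -0.29, Plat (tissue plasminogen activator) by 0.48 and Serpine2 (protease nexin-1, an inhibitor of thrombin and plasminogen activators) by 0.92, with adjusted p of 0.0856, 0.257 and 0.0933.

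**Figure D2:**
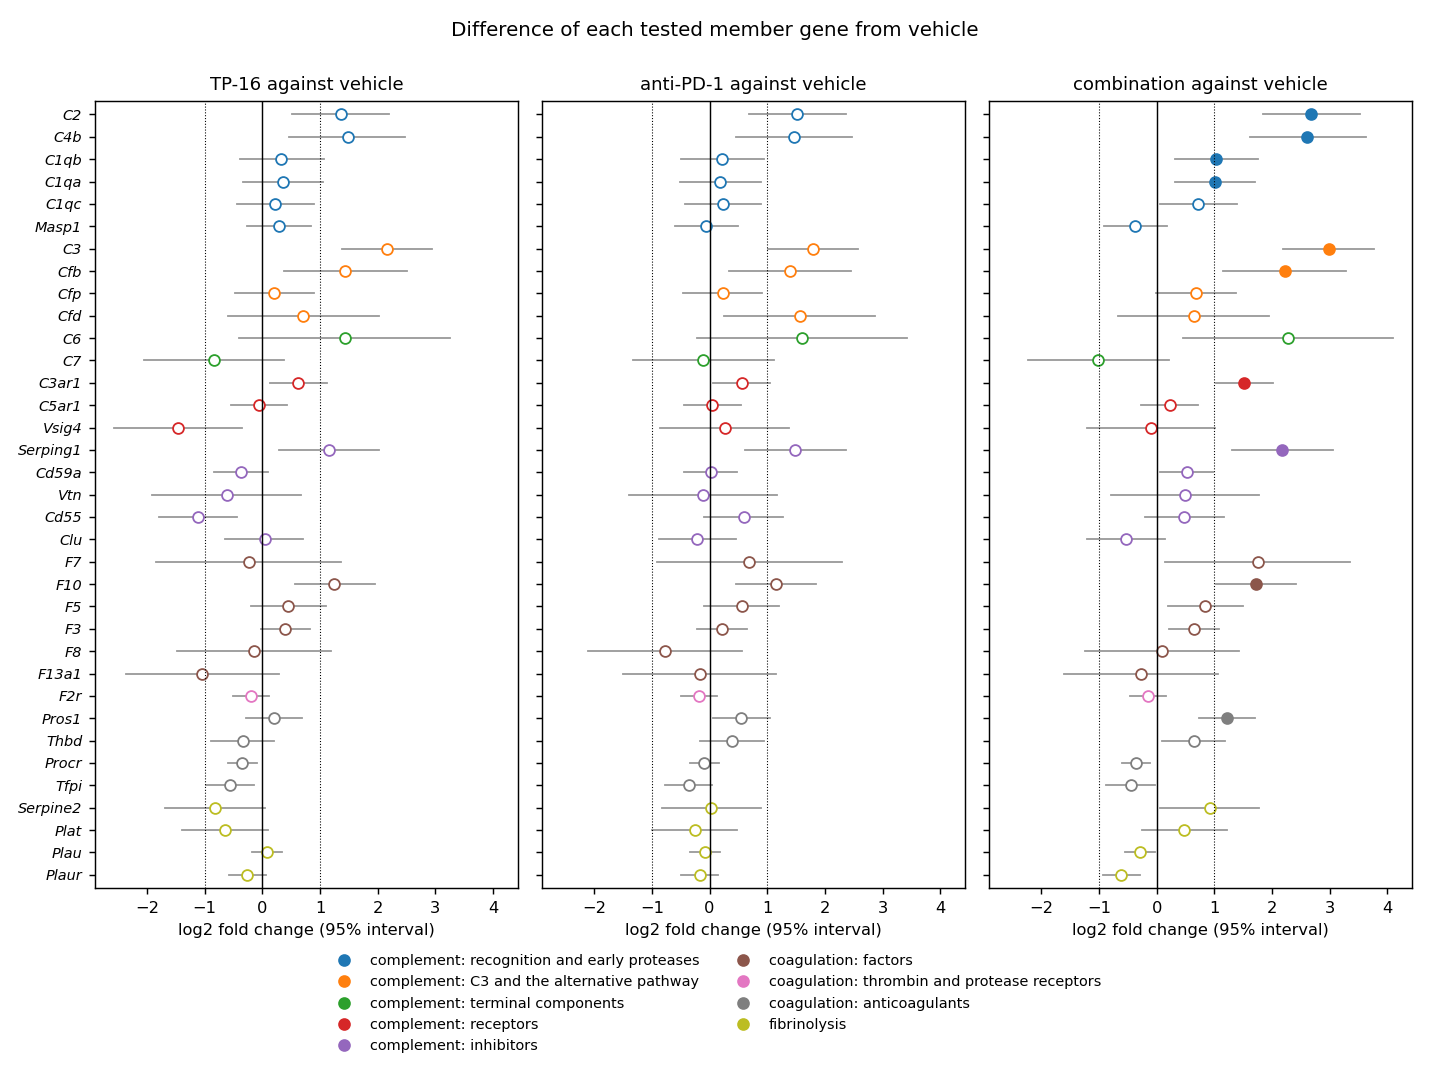
Log2 fold change from vehicle of the 35 tested members with its 95% interval, for each treatment; colours mark the role of the gene, filled circles the genes called (fold of at least 2, adjusted p of at most 0.05) and dotted lines a 2-fold change. With the combination 10 circles are filled, all on the higher side, and with each single agent 0.

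These calls rest on few arrays. Of the 10 calls, 0 held when only the 2 groups compared were fitted (limma adjusted p from 0.0632 to 0.108) or under the methods' t-test (0.174 to 0.277). Both use the same group means as the main fit, so the direction could not change in them. Without the second combination array, which leaves 1 array in that group, all 10 were still higher, with differences from 0.70 to 2.82. The first vehicle array stood below the second for C2, C3, C4b, Cfb, C1qa, C1qb, Serping1 and F10. Without that array, the differences of the 10 ran from 0.70, which is under 2-fold, to 2.54.

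None of the comparisons other than that of the combination with vehicle called more than 0.0512% of gene names in either direction after adjustment, so that 0 calls among the members say nothing particular to them. The 2 single agents were each set against the same vehicle arrays, so their values are given side by side and their overlap is not a result. After adjustment 0 of 35 members were called with TP-16, against 0.00465% of all tested gene names higher and 0.0512% lower, where 11 had an unadjusted p of at most 0.05 at any fold, against 27.9% of gene names. With anti-PD-1 0 were called, against 0.0279% higher and 0.0465% lower, and 9 had such a p, against 15.1%. The 11 of 35 with TP-16 were thus near the share over all gene names. The smallest limma adjusted p was that of C3 with both agents, 0.0645 with TP-16 and 0.212 with anti-PD-1. At the unadjusted threshold 6 members were higher with TP-16, against 1.56% of all tested gene names, and 2 were lower, against 5.12%, which is near the share of the members. With anti-PD-1 7 members were higher, against 1.9%, and 0 lower, against 2.24%.

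C2, C3, C4b, Cfb, Serping1 and F10 passed the unadjusted threshold with each agent. C3 was higher by 2.16 with TP-16 and 1.79 with anti-PD-1, C2 by 1.36 and 1.52, C4b by 1.48 and 1.46, Cfb by 1.43 and 1.40, Serping1 by 1.15 and 1.49, and F10 by 1.25 and 1.15. Cfd was the seventh with anti-PD-1, at 1.56 ± 0.53, and at 0.77 without the first vehicle array, where it did not pass. Both vehicle arrays lay below the other 6 for 9 members, against 8.47% of gene names: these 6, C3ar1, C6 and F5. Without the first vehicle array, 1 of the 6 passed with TP-16 and 2 with anti-PD-1, with differences from 0.60 to 1.72 and from 0.78 to 1.35. Under the methods' t-test 1 passed with TP-16 and 0 with anti-PD-1. Without the second TP-16 array, which was high in keratinocyte markers, 5 of the 6 passed with TP-16 (0.96 to 2.18), and without the second anti-PD-1 array 6 of 6 passed with anti-PD-1 (1.05 to 2.02).

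With TP-16 alone, Cd55 and Vsig4 were below vehicle at the unadjusted threshold. Cd55 stood at -0.75 and 0.06 with vehicle, -1.45 and -1.49 with TP-16, 0.42 and 0.07 with anti-PD-1, and 0.13 and 0.13 with the combination. Both TP-16 arrays were the lowest of the 8, and the difference from vehicle was -1.12 ± 0.28 (limma adjusted p = 0.0962). It was -0.56 when the 4 tested Cd55 probes were averaged, since 2 dimmer probes gave -0.60 and -0.57 and the dimmest was not well above background on any array of vehicle or TP-16. Without the second vehicle array it was -0.71.

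Vsig4, the complement receptor of the immunoglobulin superfamily on resident macrophages, stood at -2.30 and -2.95 with vehicle, -3.85 and -4.32 with TP-16, -2.22 and -2.52 with anti-PD-1, and -2.10 and -3.34 with the combination. Its TP-16 arrays did not overlap with any other group. The difference was -1.46 ± 0.45 (limma adjusted p = 0.128), and -0.90 after quantile normalization, which is under 2-fold. Without the second TP-16 array Cd55 passed at -1.10 and Vsig4, at -1.22, did not. F13a1, with levels of 4.56 and 3.23 with vehicle and 2.48 and 3.23 with TP-16, differed by -1.04 (unadjusted p = 0.103 in limma), with the second arrays of both groups at about the same level. Both TP-16 arrays lay below the other 6 for 8 of 35 members, against 3.86% of gene names: Cd55, Vsig4, F13a1, Cd59a, Tfpi, Thbd, Serpine2 and Plat. Of these, Cd55, Vsig4, Serpine2 and Plat were chosen for the plot of TP-16 levels because they passed the unadjusted threshold against vehicle or against the combination. Of 10 tested endothelial markers 0 were called with TP-16, their median difference was -0.66, and their summed linear level was 33.7 and 32.9 with vehicle, 24.9 and 16.1 with TP-16, 29.0 and 24.2 with anti-PD-1, and 26.9 and 36.9 with the combination. Egfl7 gave -0.85, Cldn5 -0.91 and Esam -0.78 (limma adjusted p = 0.141, 0.176 and 0.17), while Eng gave 0.13. The part of endothelial RNA in the low levels with TP-16 was not tested.

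**Figure D3:**
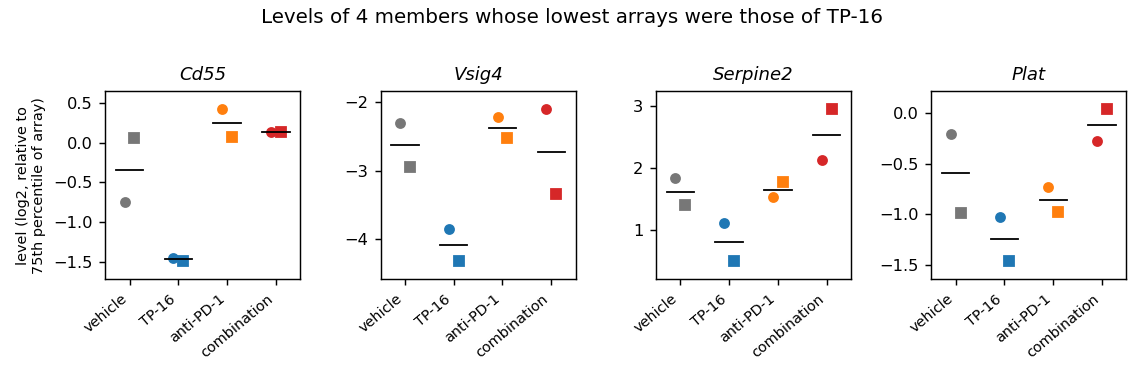
Levels (log2, relative to the 75th percentile of the array) of Cd55, Vsig4, Serpine2 and Plat in the 4 groups; circles are replicate 1, squares replicate 2 and bars the mean of both arrays. The genes were chosen for low levels with TP-16, and for each the 2 arrays of TP-16 alone are the lowest of the 8, Cd55 with -1.45 and -1.49.

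The combination was then set against each single agent. After adjustment 0 members and 0% of all tested gene names were called against TP-16, where 16 had an unadjusted p of at most 0.05 at any fold, against 23.8% of all tested gene names, and the smallest limma adjusted p was 0.113 (Cd55). Against anti-PD-1 0 members were called, beside 0% of gene names higher and 0.014% lower, where 12 had such a p, near the 29.2% over all gene names, and the smallest was 0.0741 (C3ar1). At the unadjusted threshold 9 members were higher than with TP-16, against 4% of gene names, and 0 lower, against 0.893%. Compared with anti-PD-1, 3 members were higher, against 2.39%, and 0 lower, against 2.34%: C2 by 1.15, C3 by 1.19 and C4b by 1.15. The 9 against TP-16 were F7 by 1.99, which was well above background on 1 of the 2 TP-16 arrays, Serpine2 by 1.73, Cd55 by 1.60, Vsig4 by 1.36, C2 by 1.32, C4b by 1.14, Plat by 1.13, Serping1 by 1.03 and Pros1 by 1.02. Of these, Cd55 passed in all 19 alternatives run, whereas Vsig4 did not pass in 6 of 19 (0.74 without the first combination array; range 0.53 to 1.98) nor F7 in 5 of 18 (1.22 without the first TP-16 array; range 0.66 to 2.77), and the other 6 did not pass in 1 to 5 of 19. Without the second TP-16 array Vsig4 (1.13), C4b (0.82), Plat (0.91), Serping1 (0.85) and Pros1 (0.86) did not pass.

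Serpine2 stood at 1.84 and 1.39 with vehicle, 1.11 and 0.49 with TP-16, 1.52 and 1.77 with anti-PD-1, and 2.12 and 2.95 with the combination. Plat stood at -0.20 and -0.99 with vehicle, -1.03 and -1.46 with TP-16, -0.73 and -0.98 with anti-PD-1, and -0.27 and 0.04 with the combination. Both genes were lowest with TP-16 alone. The 10 fibroblast markers were higher with the combination than with TP-16 by 0.14 (Dcn) to 1.92 (Fap). For the 10 endothelial markers this difference was 0.48 (Egfl7) to 1.98 (Tek). The part of these markers in the values against TP-16 was not tested. The departure from additivity (the combination effect less the effects of both single agents) was called for 0 members and 0% of gene names after adjustment, where 4 had an unadjusted p of at most 0.05 at any fold, against 7% of gene names, and the smallest limma adjusted p was 0.566. At the unadjusted threshold it was positive for 3, against 2.79% of gene names, and negative for 0, against 0.484%: Serpine2 with 1.70 ± 0.50, Plat with 1.39 ± 0.42 and Cd55 with 1.01 ± 0.39. Cd55 did not pass in 12 of 17 alternatives (0.60 without the second vehicle array), and its next 2 probes gave 0.42 and 0.65. Plat did not pass in 4 of 17, among them the fit without the second TP-16 array (1.18), and Serpine2 passed in all 17. For C3 it was -0.97 ± 0.45, with a 95% interval from -2.08 to 0.13, and for C2 -0.21 ± 0.48, from -1.39 to 0.98.

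C4b, Cfb and C2 lie close together on chromosome 17, and 5 protein-coding genes stand between C4b and Cfb in the RefSeq order, chosen after the values of the members were seen. Of these, Cyp21a1, Stk19, Dxo, Skiv2l and Nelfe, 0 of 5 were called with the combination, and their differences from vehicle ran from -0.96 to 0.10. Cyp21a1 (adrenal steroid 21-hydroxylase), nearest to C4b, gave -0.96 (limma adjusted p = 0.0121), Stk19 -0.83 (0.0184) and Dxo -0.49 (0.0199), each under 2-fold and below vehicle. Nelfe, nearest to Cfb, gave -0.14. C4a, which RefSeq lists as a transcribed pseudogene and which lies between Cyp21a1 and Stk19, was called, at 2.67 as given above with C4b.

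**Figure D4:**
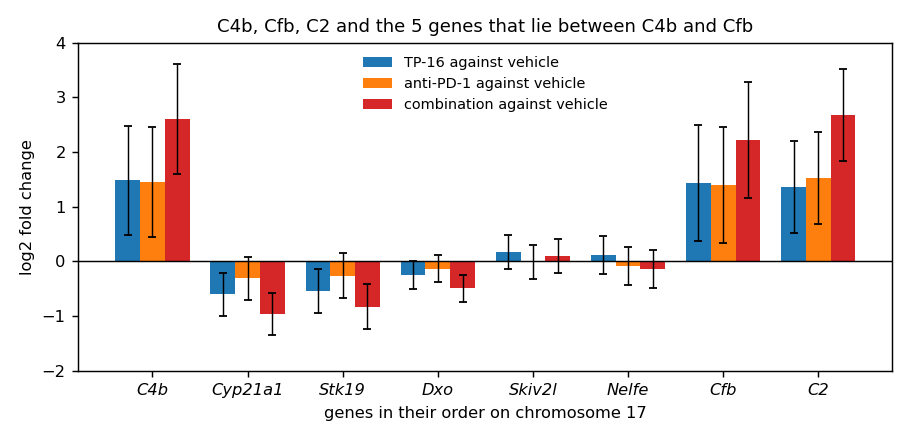
Log2 fold change from vehicle, with its 95% interval, of C4b, Cfb and C2 and the 5 protein-coding genes between C4b and Cfb, in their order on chromosome 17. The bars of the 3 complement genes reach 2.61, 2.22 and 2.68 with the combination, and those of the 5 others lie between -0.96 and 0.10. C4a, a transcribed pseudogene of the same stretch with 2.67, is not drawn.

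Other genes of the 3 cascades, from lists of non-members, were read in the same fit. Of 25 other tested complement genes, 9 were called higher and 1 lower with the combination. The proteases of C1 were among the 9, with C1s1 at 2.27, C1rb at 2.07, C1s2 at 2.04 and C1ra at 1.60, where each pair of copies may share signal. Of the chain genes of complement receptors 3 and 4, Itgb2 was called at 2.05 and Itgax at 1.61, while Itgam, the alpha chain of receptor 3, differed by -0.73 ± 0.84 (limma adjusted p = 0.531). Cd59b, tested only through the combination, where it was high, was at least 1.42-fold higher, and this difference supports nothing further. Among the 20 genes tested through more than 1 group, 8 were called higher and 1 lower, and C4a was among the 8. C5ar2, the second C5a receptor, fell by 1.27.

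Of 18 other tested coagulation genes, 1 was called higher and 4 lower. Vwf, the endothelial and platelet protein that binds factor VIII, rose by 1.54. F2rl3, the thrombin receptor PAR4, fell by 1.31. The fibrinogen chain genes Fgb and Fga and the anticoagulant Proz (protein Z) were well above background on both vehicle arrays and on no combination array, and were at least 2.50-fold, 2.43-fold and 2.55-fold lower. These 3 were tested only through vehicle, the group in which they were high, and their differences support nothing further. Among the 13 genes tested through more than 1 group, 1 was called higher and 1 lower. The third chain gene, Fgg, was not well above background on any array, nor was F2 (prothrombin). Of 7 other tested fibrinolysis genes 0 were called. Plg (plasminogen) was not well above background on any array.

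Some lists of markers of cells and of interferon response held genes called higher with the combination, some genes called lower, and some no call. Their part in the results was not tested. Of 13 tested genes induced by interferon gamma, 10 were called higher with the combination, and their summed linear level was 78.8 and 319 with vehicle, 542 and 447 with TP-16, 586 and 535 with anti-PD-1, and 791 and 921 with the combination. The first vehicle array was thus the lowest for this sum, as for C3. Of 8 tested T cell markers 4 were called higher, with a summed level of 3.56 and 13 with vehicle and 28.5 and 50.4 with the combination.

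Of 11 macrophage markers 4 were called higher (Adgre1, Cd68, Fcgr1 and Mertk), and the median difference of the list was 0.94. Adgre1 rose by 2.06 and Cd68 by 1.13, Aif1 differed by 1.57 (limma adjusted p = 0.0632), and Lyz2, by far the brightest of the list, by -0.56. The summed level of the 11, which Lyz2 dominates, was 575 and 668 with vehicle and 587 and 652 with the combination. Of 10 fibroblast markers 4 were called higher, with sums of 299 and 263 against 498 and 536. Endothelial markers gave 0 calls among 10 with the combination, and 2 of 4 tested platelet markers were called lower, with sums over the 8 listed of 67.0 and 41.9 against 24.5 and 27.2. Hepatocytes are the main source of the plasma proteins of both cascades: 0 of 6 tested hepatocyte markers were called with the combination. Their differences went both ways, with Serpina1a at 1.23 (limma adjusted p = 0.0548), Tat at -0.90 (0.0373), Alb at -1.66 (0.186) and Apoa2, the brightest, at -0.01. The sum over the 10 listed was 3.82 and 4.16 on the combination arrays and 2.61 to 3.31 on the others. Neutrophil markers were called lower for 2 of 9 (S100a8 and S100a9), and the median difference was -0.17 over the 7 tested through more than 1 group. Camp differed by 1.30 (limma adjusted p = 0.115), Retnlg by 0.83 (0.101) and Mmp8 by 0.80 (0.0368). Of 7 tested markers of carcinoma and intestinal epithelium 0 were called higher and 2 lower with the combination, Krt18 by -1.39 (adjusted p = 0.0196) and Cdx2, which was tested only through vehicle, where it was high. Over the 5 tested through more than 1 group the median was -0.67, with Lgals4 at -0.67 (0.0143), Krt8 at -2.68 (0.0524) and Krt20 at -0.01. Cdh1 went the other way, at 0.82 (limma adjusted p = 0.22).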

How the data were processed

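RNA of CT26 tumors (4 groups, 2 samples each) was measured on Agilent one-colour arrays. The methods name TRIzol and the labels a column kit for extraction. Per the labels, Feature Extraction 10.7.1.1 was used, and the intensities deposited by the authors are background-subtracted. The authors also deposited log2 values, normalized in GeneSpring by a method not named in the sources used here.

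Spots marked as outliers (959) and 38 probes with no usable value on some array were set aside with the control spots, and replicate spots were averaged. Log2 intensities, scaled to the 75th percentile of each array, were fitted for all 8 arrays in limma 3.58.1 (R 4.3.3), with 1 mean per group, 4 residual degrees of freedom and adjustment over 31912 probes. Groups came from the labels. A gene was read from its brightest tested probe. The members and lists were chosen with earlier results of these data known. Per-array values were given for members called in any comparison and for the 2 largest changes in each direction against vehicle, with further members added for their place in the pathway, and other pathway genes where called, although some genes of the lists are counted but not reported by name here. Bounds ("at least") set the mean of the brighter group against the lowest signal well above background on each dimmer array. Probe positions are mm9. The columns used all mapped to samples.

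Alternatives were quantile normalization, normexp correction (offset 50), 2 other probe filters, a replicate block, the authors' log2 values, the methods' t-test, trended and robust moderation, a fit restricted to the compared groups, a fold of 1.5, the mean over probes, and leaving out each array. A slide block was not possible on 1 slide. The code was tested on simulated data. Figures were drawn with matplotlib 3.10.9 in Python 3.11.15.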

Additional observations from a re-analysis of the deposited data

How the results depend on the processing

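Relative to vehicle, the median log2 difference of all tested probes with the combination was -0.20 after scaling to the 75th percentile and -0.01 after quantile normalization. The 10 members called with the combination were higher under quantile normalization, normexp correction, the authors' log2 values and the mean over probes. They were also higher without any 1 vehicle or combination array. The other alternatives keep the same difference of group means, so its sign could not change. After quantile normalization and with the authors' log2 values 13 members were called. These 2 gave nearly the same differences (1.27 to 3.4 for the 10 in both) and are not separate support. The count was 0 in the methods' t-test and 0 in the fit of the compared groups only, and from 0 to 12 when 1 array was left out. The replicate numbers share no stated source and the deviations of same-numbered samples correlated at -0.193 to 0.29. With the replicate block 8 members were called, without C1qa and C1qb (adjusted p = 0.0604 and 0.0648), and the block changed no other count by over 1.5 times. With TP-16, 6 members were called after normexp correction, 1 among probes above background on all arrays, 2 with trended and robust moderation, and 0 to 2 when 1 array was left out. With anti-PD-1 the range when 1 array was left out was 0 to 2. Against TP-16, normexp correction called 1 member and trended and robust moderation 2, and against anti-PD-1 normexp correction called 2. The count at the unadjusted threshold became 6 with the combination, 1 with TP-16 and 0 with anti-PD-1 under the t-test, and when 1 array was left out it ranged from 8 to 14, from 2 to 11 and from 3 to 8. The cause of these differences was not tested. No member past a threshold changed sign, though many of the alternatives could not change it. For departure from additivity, the t-test was not run and a fit of fewer groups does not exist. C6 and F7, not well above background on some arrays, had the largest standard errors of the tested members against vehicle (0.74 and 0.65).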
